A study of Arabidopsis thaliana with 24 samples.

Results

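Roots of Arabidopsis thaliana that grew on isoxaben throughout were compared with roots that were moved onto isoxaben on day 5, both at 6 mM KNO3. The comparison held 3 long-term isoxaben libraries and 3 shift isoxaben libraries, 6 of the 24 libraries in the series, chosen by their labels and not by a measured value. Both groups were whole roots of the accession Col-0 harvested 6 days after stratification, and isoxaben was given at 2.5 nM to both. Long-term seedlings had isoxaben in their agar, a Murashige and Skoog medium adjusted to 6 mM KNO3, from the start. Shift seedlings grew on a polyester mesh on medium with the same KNO3 and were then moved to medium that also held isoxaben. The length of exposure therefore went together with the mesh and the move, and within these 6 libraries they cannot be told apart. Long-term and shift mock roots at 6 mM KNO3 and long-term and shift isoxaben roots at 60 mM KNO3, each with 3 libraries, were set beside them. The labels do not say whether replicates came from separate plates, so p-values measure only the spread between these libraries, which may be technical. Whether long-term and shift plants were grown or sequenced together is not stated either and was not tested.

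Isoxaben is a herbicide that blocks cellulose synthesis, which takes place in plasma membrane complexes of CESA subunits. Seedlings with too little cellulose are known to sense the damaged wall through receptor kinases and to make jasmonate, deposit lignin outside its usual cells and express defence genes. During root elongation, expansins and xyloglucan-modifying enzymes loosen the wall that cellulose stiffens.

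The 6 libraries held between 19030872 and 19873941 counts, and a count of 3, the most that a count of 0 allows, was worth at most 0.161 CPM, where CPM is the count divided by the library size after TMM scaling. CPM takes no account of gene length, so it compares libraries and not genes. Replicates were not the same library deposited again: chi-square divided by its degrees of freedom, which is near 1 for counting error alone, was 2.66 to 3.37 among long-term isoxaben pairs and 4.4 to 13 among shift isoxaben pairs. On the first principal component of the 12 libraries at 6 mM KNO3, which held 27.8% of the variance, long-term isoxaben libraries scored -26.5 to -24.8 and shift isoxaben libraries -14.1 to -4.72. Long-term mock libraries scored 20.7 to 22.2 and shift mock libraries 11.7 to 14 on it. The second component, with 16.4%, was positive in the 6 long-term libraries and negative in the 6 shift libraries, whether they had isoxaben or mock.

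Long-term isoxaben roots differed from shift isoxaben roots in a minority of genes, more often by a rise than by a fall. Of 20546 genes tested, 637 were called at an adjusted p under 0.05, which is 3.1% (edgeR quasi-likelihood test, Benjamini-Hochberg adjustment over all genes). They were 435 genes higher and 202 genes lower in long-term isoxaben, 2.12% and 0.983% of all tested. Most differences were modest: the median absolute log2 fold change of the called genes was 0.48, and 81 of them, 0.394% of all tested, reached 1. CPM ranges of the 3 and 3 libraries stood apart for 635 of the 637, against 25.2% of all genes tested. With libraries scaled by their size alone, 623 genes were called, of which 336 were higher and 287 lower in long-term isoxaben, so the size of the excess of rises depended on the scaling. The fit took its spread from all 24 libraries. Fitted on the 6 libraries alone, 1368 genes were called, 909 higher and 459 lower in long-term isoxaben. The count fell whenever 1 library was left out. It was 191 without shift isoxaben replicate 2, and 257 without replicate 1 and 286 without replicate 3 of long-term isoxaben. It was 407 without shift isoxaben replicate 1 and 410 without long-term isoxaben replicate 2. Such a fit has fewer replicates and so less power, and a lost call need not mean that 1 library made it. In all 6 such fits 151 of the 637 were called, 101 higher and 50 lower. In whole roots, fewer cells of a type and less RNA per cell cannot be told apart.

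**Figure D1:**
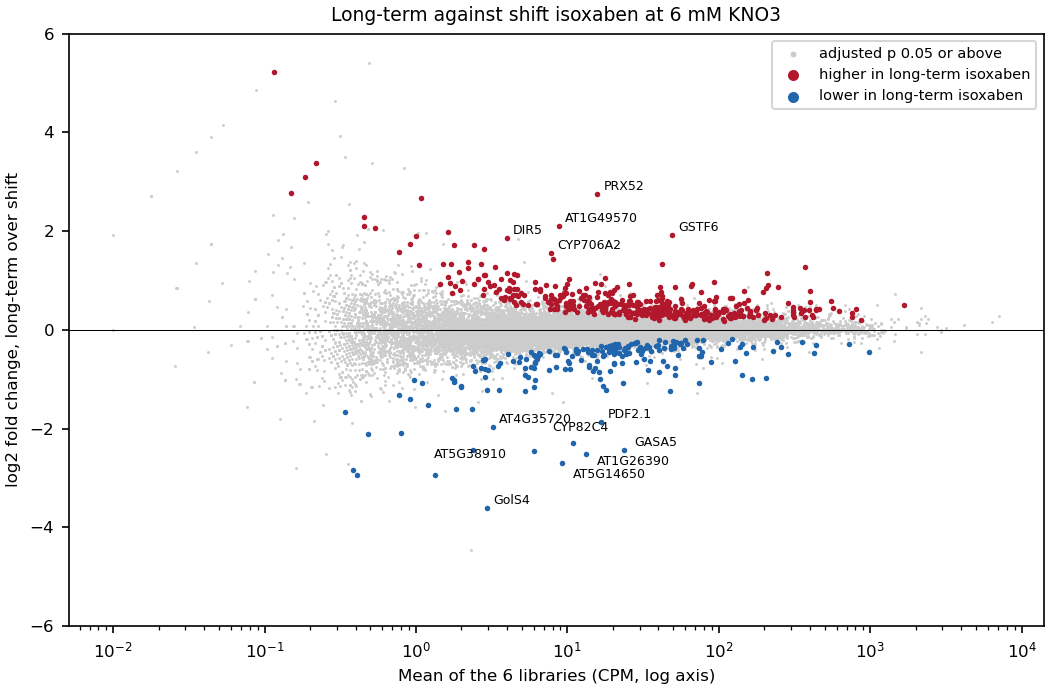
Log2 fold change of long-term over shift isoxaben at 6 mM KNO3 (vertical axis) against the mean of the 6 libraries in CPM (horizontal log axis), 1 point per gene tested. Red points are the 435 genes higher and blue points the 202 genes lower in long-term isoxaben at an adjusted p under 0.05; labels mark genes named in the text with an absolute log2 fold change of 1.5 or more.

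The 12 largest rises among well-expressed called genes were 3 class III peroxidases, which use hydrogen peroxide to oxidise phenolic compounds in the wall, 3 phi-class glutathione S-transferases, which conjugate glutathione to reactive compounds, and 2 cytochromes P450, with a dirigent protein, a purine permease, a GDSL-type lipase and a chitinase. The peroxidase PRX52 (AT5G05340), linked to lignin formation in the stem, had 28.6, 31.2 and 22.4 CPM in long-term isoxaben roots, against 3.88, 2.29 and 6.14 CPM in shift isoxaben roots. Its 3 long-term values lay far above its 3 shift values, and it was the largest rise named (log2 fold change 2.74 ± 0.56 SE; edgeR adjusted p 0.0121). The call was lost with DESeq2 (adjusted p 0.0557), without shift isoxaben replicate 1 (0.0508) and without shift isoxaben replicate 2 (0.0881). DIR5 (AT1G64160), a dirigent protein that steers the coupling of coniferyl alcohol radicals, had 6.77, 6.34 and 5.59 CPM in long-term isoxaben and 1.99, 0.748 and 2.42 CPM in shift isoxaben. It had at most 2 counts in each of the 6 mock libraries at 6 mM KNO3, under the limit of 3 counts. Its rise over shift isoxaben (log2 fold change 1.86 ± 0.42 SE; edgeR adjusted p 0.0201) was lost without long-term isoxaben replicate 1 (0.0766) or 2 (0.0549) and also without shift isoxaben replicate 1 (0.0548) or 2 (0.115).

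The other 2 peroxidases kept their call without any 1 of the 6 libraries. AT5G64120 had 278, 284 and 306 CPM in long-term isoxaben and 122, 126 and 144 CPM in shift isoxaben (log2 fold change 1.15 ± 0.14 SE; edgeR adjusted p 0.000224). AT1G49570 had 15.3, 12.8 and 14.5 CPM in long-term isoxaben and 2.83, 3.54 and 3.51 CPM in shift isoxaben (log2 fold change 2.11 ± 0.31 SE; edgeR adjusted p 0.00103). In mock roots AT5G64120 averaged 102 ± 8.96 CPM in long-term and, in shift plants, 82.5 ± 10.1 CPM (SD, n = 3 each), below both isoxaben groups. AT1G49570 averaged 10.2 ± 1.37 CPM in long-term mock and 6.1 ± 2.33 CPM in shift mock, and its 3 shift isoxaben values lay below all 3 long-term mock values.

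GSTF6 (AT1G02930), which takes part in the synthesis of the phytoalexin camalexin, had 86.1, 77.2 and 69.2 CPM in long-term isoxaben roots, against 21.2, 17.2 and 23.2 CPM in shift isoxaben roots. The groups were far apart (log2 fold change 1.92 ± 0.32 SE; edgeR adjusted p 0.00328), and the call held without any 1 of the 6 libraries. Its neighbour GSTF7 (AT1G02920) had 68.4, 59.7 and 52.7 CPM in long-term isoxaben and 21.3, 23.2 and 27 CPM in shift isoxaben (log2 fold change 1.34 ± 0.29 SE; edgeR adjusted p 0.0187). The GSTF7 call was lost without long-term isoxaben replicate 1 (adjusted p 0.0838), shift isoxaben replicate 1 (0.0765) or shift isoxaben replicate 2 (0.0953). The most abundant of the 3, GSTF2 (AT4G02520), had 570, 508 and 494 CPM in long-term isoxaben and 211, 187 and 256 CPM in shift isoxaben (log2 fold change 1.27 ± 0.24 SE; edgeR adjusted p 0.00828). Its adjusted p was 0.0638 without shift isoxaben replicate 2. In mock roots the 3 genes differed little between exposures, with log2 fold changes of 0.29 for GSTF6, -0.15 for GSTF7 and -0.07 for GSTF2 and an adjusted p of 0.915 or more for each. About 10.3% of the 50-base exon windows of GSTF6 and 10% of those of GSTF7 recur elsewhere in the genome, and GSTF2 overlaps a gene on the other strand, which leaves their counts uncertain by that much.

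The start region of GSTF7, on the minus strand of chromosome 1, is shown as an example from the genes that rose. The sequence runs 5′ to 3′ on the coding strand from 250 bases before to 50 bases after the RefSeq gene start in TAIR10.1, at chr1:659931-660230. Capitals mark the core letters of the W box bound by WRKY factors, TTGAC, on either strand.
GSTF7: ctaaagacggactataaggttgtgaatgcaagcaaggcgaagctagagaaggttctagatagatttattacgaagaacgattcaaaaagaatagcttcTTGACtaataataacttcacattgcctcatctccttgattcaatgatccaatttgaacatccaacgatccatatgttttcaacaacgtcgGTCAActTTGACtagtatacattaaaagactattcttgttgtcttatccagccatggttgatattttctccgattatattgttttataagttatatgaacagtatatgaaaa
The letters occurred at 3 places in GSTF7. TTGAC stood in the same window of 9 of the 12 largest rises, 7 of the 12 largest falls and 51.3% of the 20488 promoters of genes tested. The core of TGA factor sites, TGACG on either strand, was in 4 of the 12 rises, 1 of the 12 falls and 23.8% of all promoters, and it can share its first letters with a W box core. The G box CACGTG was in 1 of the 12 rises, 0 of the 12 falls and 8.52% of all promoters. A match is a description of these letters and not of binding.

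CYP706A2 (AT4G22710) and CYP706A1 (AT4G22690), cytochromes P450 that also lie near each other, rose together. CYP706A2 had 11.3, 12.3 and 11.3 CPM in long-term isoxaben and 4.02, 2.49 and 5.42 CPM in shift isoxaben (log2 fold change 1.55 ± 0.2 SE; edgeR adjusted p 9.29e-05). CYP706A1 had 11.6, 13.6 and 10.1 CPM in long-term isoxaben and 4.52, 2.89 and 5.73 CPM in shift isoxaben (log2 fold change 1.43 ± 0.26 SE; edgeR adjusted p 0.00441). Both held without any 1 of the 6 libraries, but 60.4% of the exon windows of CYP706A2 and 46.6% of those of CYP706A1 recur elsewhere, so reads could have been shared between them or with other copies. The 3 remaining genes of the 12 were PUP7 (AT4G18197), a purine permease with a log2 fold change of 1.15, GLIP3 (AT1G53990), a GDSL-type lipase with 1.13, and AT2G43620, annotated as a chitinase, with 1.11. Their means were 5.54, 6.08 and 6.4 CPM in long-term isoxaben and 2.49, 2.77 and 2.96 CPM in shift isoxaben, in that order. GLIP3 and AT2G43620 held without any 1 library, while the adjusted p of PUP7 was 0.0524 without shift isoxaben replicate 2, and PUP7 overlaps a gene on the other strand.

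**Figure D2:**
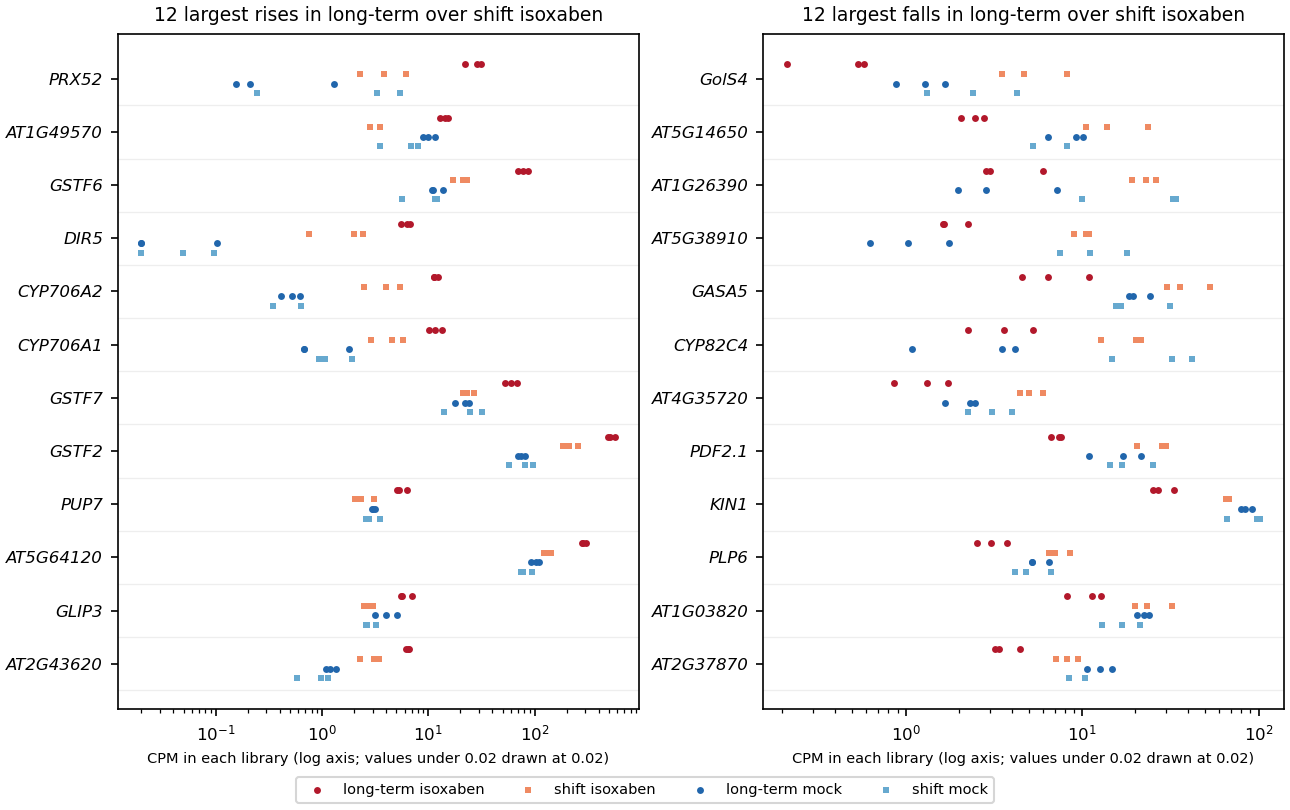
CPM of the 12 largest rises (left) and the 12 largest falls (right) in each library at 6 mM KNO3, on a log axis, with 3 points per group. For each gene the long-term isoxaben points (dark red circles) stand apart from the shift isoxaben points (orange squares), and mock libraries (blue) are drawn beneath them.

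The largest falls were in genes of more varied kinds. GolS4 (AT1G60470), a galactinol synthase that begins the synthesis of raffinose-type sugars, had 0.212, 0.581 and 0.538 CPM in long-term isoxaben roots, against 3.53, 4.69 and 8.2 CPM in shift isoxaben roots. Its long-term values rest on 4 to 11 counts, and its fall (log2 fold change -3.60 ± 0.62 SE; edgeR adjusted p 0.00352) held without any 1 library, although it overlaps a gene on the other strand. AT5G14650, annotated as a pectin lyase-like protein, had 2.06, 2.8 and 2.47 CPM in long-term isoxaben and 10.5, 13.9 and 23.8 CPM in shift isoxaben (log2 fold change -2.71 ± 0.39 SE; edgeR adjusted p 0.000933). GASA5 (AT3G02885), a small cysteine-rich peptide of a gibberellin-regulated family, had 4.55, 10.9 and 6.4 CPM in long-term isoxaben and 30.2, 35.9 and 53.1 CPM in shift isoxaben (log2 fold change -2.44 ± 0.34 SE; edgeR adjusted p 0.000933). In both genes the highest shift value was that of replicate 3, the shift library that differed most from replicate 1 in its counts.

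KIN1 (AT5G15960), known as a cold- and abscisic acid-induced protein, had 25.1, 33.1 and 27 CPM in long-term isoxaben and 68.4, 68.3 and 65.8 CPM in shift isoxaben (log2 fold change -1.25 ± 0.16 SE; edgeR adjusted p 0.000257). AT2G37870, annotated as a lipid-transfer-type protein, had 3.39, 4.44 and 3.23 CPM in long-term isoxaben and 7.16, 9.42 and 8.25 CPM in shift isoxaben (log2 fold change -1.17 ± 0.17 SE; edgeR adjusted p 0.000257). The defensin gene PDF2.1 (AT2G02120) had 7.41, 7.55 and 6.67 CPM in long-term isoxaben and 20.6, 28.3 and 30.1 CPM in shift isoxaben (log2 fold change -1.87 ± 0.27 SE; edgeR adjusted p 0.000848). All 3 held without any 1 of the 6 libraries. AT4G35720, annotated with a DUF241 domain, fell by 1.97 on the log2 scale with means of 1.31 CPM in long-term isoxaben and 5.15 CPM in shift isoxaben, and it held as well. PLP6 (AT2G39220), a patatin-like protein, and AT1G03820, annotated as E6-like, fell by 1.23 and 1.22. Neither was called once long-term isoxaben replicate 1 was left out, with an adjusted p of 0.0514 for PLP6 and 0.0616 for AT1G03820, and AT1G03820 was not called when only the libraries compared were fitted (0.0629).

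The remaining 3 of the 12 falls were also lower in long-term than in shift mock roots. AT1G26390, of the FAD-binding berberine family, averaged 3.95 ± 1.76 CPM in long-term isoxaben and 22.7 ± 3.51 CPM in shift isoxaben (SD, n = 3 each), and 4 ± 2.79 CPM in long-term mock and 25.5 ± 13.4 CPM in shift mock. AT5G38910, annotated as a cupin, averaged 1.85 ± 0.357 CPM in long-term isoxaben and 10.2 ± 1.02 CPM in shift isoxaben, and 1.14 ± 0.573 CPM in long-term mock and 12.2 ± 5.38 CPM in shift mock. CYP82C4 (AT4G31940), which makes the iron-mobilising coumarin sideretin, averaged 3.7 ± 1.49 CPM in long-term isoxaben and 18.2 ± 4.7 CPM in shift isoxaben, and 2.93 ± 1.63 CPM in long-term mock and 29.7 ± 13.8 CPM in shift mock. Their log2 fold changes were -2.52, -2.46 and -2.29 under isoxaben and -2.67, -3.41 and -3.34 under mock, each called in both (edgeR, adjusted p from 8.57e-05 to 0.0236). Under isoxaben CYP82C4 was lost in 5 of the 6 fits that left out a library, all but the one without shift isoxaben replicate 1, with an adjusted p from 0.06 to 0.122 (0.122 without long-term isoxaben replicate 3). Under mock AT1G26390 was lost without long-term mock replicate 2 (0.0622) or 3 (0.0745), and all 3 were lost when only the mock libraries were fitted (0.122 to 0.436). The difference between the isoxaben and the mock effect was not called for any of the 3, with an adjusted p of 0.745 to 0.987.

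Mock roots, of which the shift plants went through the same mesh and move without isoxaben, showed how far the called genes differed between exposures in libraries that this comparison does not hold. Between long-term and shift mock, 132 genes were called, 0.642% of those tested. They were 52 higher and 80 lower in long-term mock, 0.253% and 0.389% of those tested, and 42 of them, 0.204%, had an absolute log2 fold change of 1 or more. Between 40 and 105 were called when 1 of the 6 mock libraries was left out (40 without shift mock replicate 1, 43, 49 and 46 without long-term mock replicates 1, 2 and 3, and 69 without shift mock replicate 2). Of the 637 genes called under isoxaben, 48 were called under mock in the same direction, 7.54% of the 637 and 36.4% of the 132. They were 21 of the 435 genes higher and 27 of the 202 genes lower in long-term isoxaben. Medians on the log2 scale were 0.46 under isoxaben and 0.12 under mock for the 435 higher genes, and -0.52 under isoxaben and -0.10 under mock for the 202 lower genes. These genes were chosen by their isoxaben values, which enlarges the isoxaben medians but not the mock medians. The gap between them is therefore not read as a size. Across all 20546 genes, log2 fold changes under isoxaben and under mock had a Pearson r of 0.0643 and a Spearman rho of 0.206, a description across genes of 2 sets of libraries that share none.

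More genes were called for the same exposures at 60 mM KNO3. Between long-term and shift isoxaben at 60 mM KNO3, 5107 genes were called, 24.9% of those tested, 2705 higher and 2402 lower in long-term isoxaben, which is 13.2% and 11.7%. With libraries scaled by their size alone, 1912 were higher and 3642 lower, so which direction held more genes depended on the scaling. Fitted on the libraries compared alone, 3219 genes were called at 60 mM, beside 1368 at 6 mM. An absolute log2 fold change of 1 or more was reached by 838, 4.08% of those tested. Of the 637 genes called at 6 mM KNO3, 369 were called in the same direction at 60 mM, 57.9% of the 637 and 7.23% of the 5107, and 31 in the opposite direction. At 60 mM the 435 higher genes had a median of 0.37 and the 202 lower genes a median of -0.46 on the log2 scale. Their choice at 6 mM enlarges their medians at 6 mM but not these. Across all genes, log2 fold changes at 6 mM and 60 mM had a Pearson r of 0.292 and a Spearman rho of 0.272, again over libraries that are not shared. Long-term isoxaben libraries at 60 mM KNO3 were the least alike of the 6 groups compared, where the same ratio ran from 10.3 to 21.8 between replicates.

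**Figure D3:**
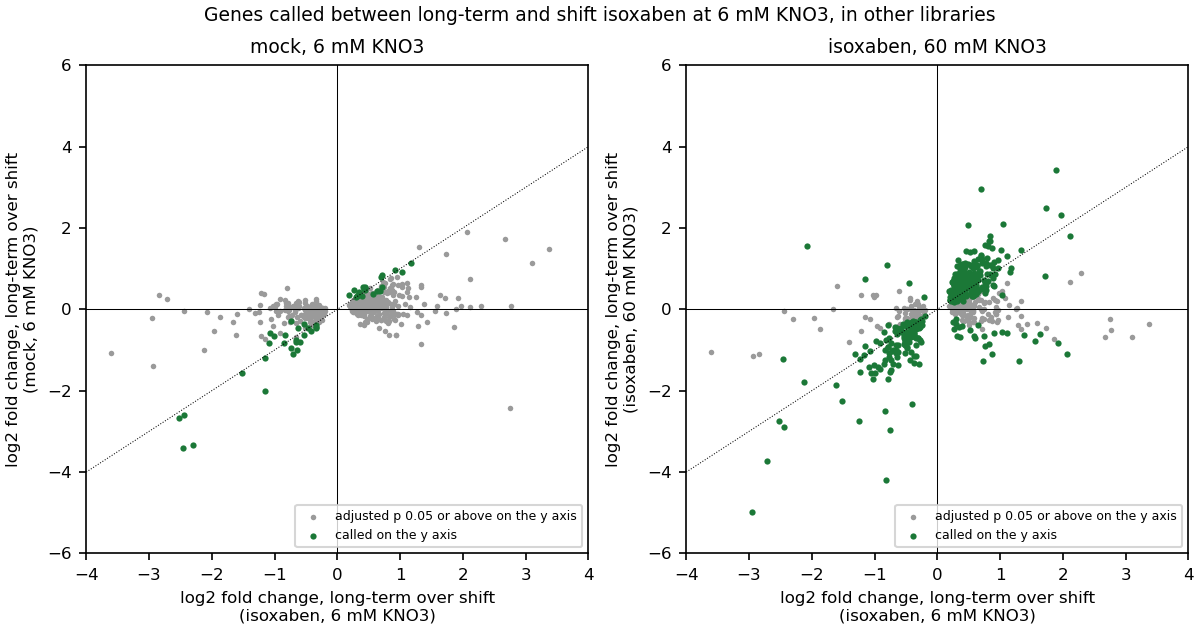
Log2 fold change of long-term over shift isoxaben at 6 mM KNO3 (horizontal axes) for the 637 genes called there, against the same exposures in mock libraries at 6 mM KNO3 (left) and in isoxaben libraries at 60 mM KNO3 (right). Green points were called on the vertical axis, 48 on the left and 400 on the right; the dotted line marks equal values.

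The effect of exposure differed between isoxaben and mock for 54 genes. The test of the difference, the isoxaben effect minus the mock effect at 6 mM KNO3, called these 54, which are 0.263% of those tested, while DESeq2 called 113 and a fit on only the libraries compared called 119. The value was higher under isoxaben for 36 (0.175%) and lower for 18 (0.0876%), and 25 (0.122%) reached a difference of 1 on the log2 scale. The count of calls ran from 18 without long-term mock replicate 3 to 66 without shift mock replicate 2, and was 27 without long-term isoxaben replicate 1 or shift isoxaben replicate 2, 30 without long-term mock replicate 2 or long-term isoxaben replicate 3 and 35 without shift mock replicate 3. The smallest adjusted p belonged to TI1 (AT2G43510), a trypsin inhibitor. TI1 had 7.2, 8.24 and 8.28 CPM in long-term isoxaben and 10.2, 10.4 and 9.7 CPM in shift isoxaben, but 1.5, 1.46 and 1.6 CPM in long-term mock and 9.27, 16.8 and 11.6 CPM in shift mock. Long-term mock roots alone were low, and the log2 fold change of long-term over shift was -0.35 with isoxaben (adjusted p 0.393) and -3.04 with mock (adjusted p 5.64e-07, edgeR), a difference of 2.68 (SE 0.32, adjusted p 0.000717, edgeR). ROPGEF12 (AT1G79860), an activator of ROP GTPases, averaged 10.5 ± 0.606 CPM in long-term isoxaben and 9.26 ± 0.996 CPM in shift isoxaben, and 3.01 ± 0.293 CPM in long-term mock and 6 ± 0.344 CPM in shift mock (difference 1.17 ± 0.16 SE; edgeR adjusted p 0.00114).

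XTH26 (AT4G28850), a xyloglucan-modifying enzyme of root hairs, had the same form on a larger scale. It had 20.7, 18.3 and 21.5 CPM in long-term isoxaben and 16.3, 13.1 and 20.1 CPM in shift isoxaben, which overlapped, and 0.207, 0.209 and 0.31 CPM in long-term mock and 3.78, 3.52 and 2.18 CPM in shift mock. The log2 difference was 3.96 (adjusted p 0.00231, edgeR), with long-term mock values only a little over the limit of 3 counts, so its size is uncertain. AT2G37870 and AT2G33620, annotated as an AT hook DNA-binding protein, went the other way. Their log2 fold changes were -1.17 and -0.84 under isoxaben (adjusted p 0.000257 and 6.98e-05) and 0.39 and 0.22 under mock (0.321 and 0.588), with differences of -1.55 and -1.06 (adjusted p 0.00139 and 0.00144, edgeR). AT2G33620 overlaps genes on the other strand. 

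The 12 largest rises and falls were chosen by their values in the isoxaben libraries that this test also uses, so their counts here are a description. Of the 12 largest rises, edgeR called the difference from mock for none, although 10 reached an unadjusted p under 0.05 and DESeq2 called 3. The differences ran from 0.60 for GLIP3 to 5.16 for PRX52 on the log2 scale (adjusted p 0.117 to 0.923, edgeR). DESeq2 called PRX52, AT5G64120 and GSTF2 (adjusted p 0.017, 0.00482 and 0.029). PRX52 had 3, 4 and 25 counts in long-term mock and 5, 67 and 112 counts in shift mock libraries at 6 mM KNO3. The size of its difference is therefore uncertain. Of the 12 largest falls, edgeR called the difference from mock for 4, DESeq2 for 8, and 9 reached an unadjusted p under 0.05. The DESeq2 calls added AT1G03820, AT4G35720, PDF2.1 and PLP6 (adjusted p 0.000653, 0.0187, 0.00306 and 0.0203). AT5G14650 averaged 8.57 ± 1.91 CPM in long-term mock and 7.21 ± 1.7 CPM in shift mock, GASA5 20.7 ± 3.14 CPM in long-term mock and 21.2 ± 8.91 CPM in shift mock, and KIN1 85.3 ± 6.1 CPM in long-term mock and 88.7 ± 19.4 CPM in shift mock (SD, n = 3 each). None of these 3 differed between exposures under mock by more than its spread, and the differences between the isoxaben and the mock effect were -2.96, -2.41 and -1.19 (adjusted p 0.0235, 0.041 and 0.0237, edgeR). Each of the 3 calls was lost when some single libraries were left out, 6 of the 12 for AT5G14650 (adjusted p 0.0516 to 0.086), 9 for GASA5 (0.0763 to 0.14) and 6 for KIN1 (0.0526 to 0.0828). With only the libraries compared all 3 were lost too (edgeR adjusted p 0.0528, 0.1505 and 0.0533, in that order). The fourth, AT2G37870, kept its call in each fit that left out a library.

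The effect of exposure differed between 6 mM and 60 mM KNO3 for more genes. The effect at 6 mM minus the effect at 60 mM KNO3 was called for 1694 genes, 8.24% of those tested, 924 with the higher and 770 with the lower value at 6 mM (4.5% and 3.75%), and 478 (2.33%) reached a difference of 1 on the log2 scale. Among the 1694 were 10 of the 12 largest rises, all but AT1G49570 and PUP7, and 3 of the 12 largest falls, but these genes were chosen by the same 6 mM libraries, which raises such a count, so nothing is read from it. GSTF6 was higher in long-term than in shift isoxaben at 6 mM, but at 60 mM KNO3 it averaged 112 ± 34.7 CPM in long-term isoxaben and 200 ± 2.4 CPM in shift isoxaben (SD, n = 3 each). PRX52 at 60 mM averaged 116 ± 33.7 CPM in long-term isoxaben and 137 ± 12.2 CPM in shift isoxaben, and CYP706A2 13.4 ± 2.64 CPM in long-term isoxaben and 23 ± 2.01 CPM in shift isoxaben. For GSTF6, PRX52 and CYP706A2 the effect at 6 mM exceeded that at 60 mM KNO3 by 2.75, 2.99 and 2.33 on the log2 scale (adjusted p 0.00054, 0.0113 and 2.69e-06, edgeR). The difference for PRX52 was lost with DESeq2 (0.129), and those of GSTF2, GSTF7 and PDF2.1 were lost without single libraries (5 of 12 fits for GSTF2, 5 for GSTF7 and 8 for PDF2.1).

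The genes with the smallest adjusted p in this test had small or no calls at 6 mM KNO3. SP1L5 (AT4G23496), of a family of microtubule-associated proteins, had 5.5, 5.44 and 5.59 CPM in long-term isoxaben and 9.44, 9.92 and 9.65 CPM in shift isoxaben at 6 mM, against 0.677, 0.445 and 0.634 CPM in long-term isoxaben and 10.9, 11.3 and 10.3 CPM in shift isoxaben at 60 mM. The groups were apart at both KNO3 levels, and the log2 fold changes were -0.81 at 6 mM (adjusted p 3.45e-05) and -4.19 at 60 mM (adjusted p 4.2e-17), a difference of 3.38 (adjusted p 7.03e-12, edgeR). The serine carboxypeptidase-like gene scpl31 (AT1G11080) had log2 fold changes of -0.40 and -2.32 at 6 and 60 mM, AT2G47200, annotated as uncharacterised, -0.10 and -1.89, and the PHO1 family gene PHO1;H1 (AT1G68740) 0.14 and -1.16. At 6 mM KNO3 the first was called (adjusted p 0.00825, edgeR, lost without long-term isoxaben replicate 3) and the other 2 were not (0.613 and 0.303).

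**Figure D4:**
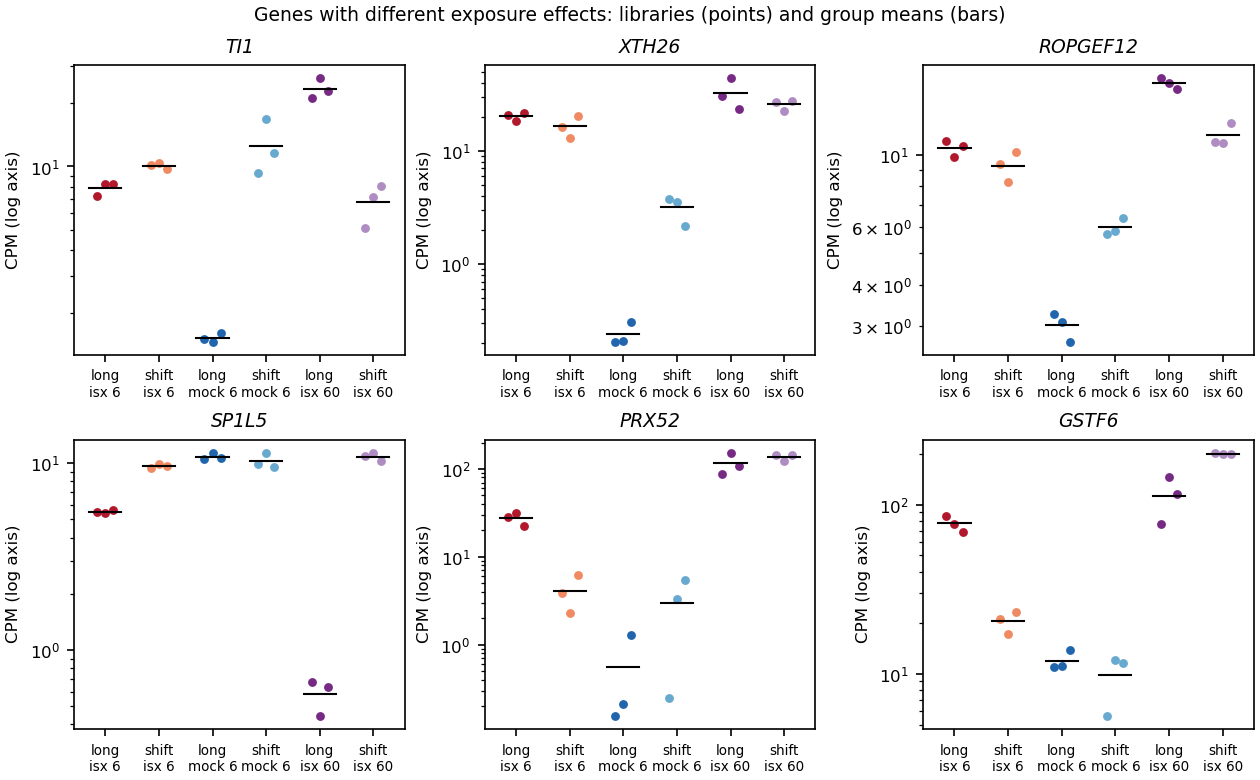
CPM per library (points) and group means (bars) on log axes for 6 genes whose difference between exposures depended on isoxaben (TI1, XTH26, ROPGEF12) or on KNO3 (SP1L5, PRX52, GSTF6); isx is isoxaben, and 6 and 60 are mM KNO3. Among the 6 groups plotted, TI1, XTH26 and ROPGEF12 are lowest in long-term mock roots at 6 mM, and SP1L5 is lowest in long-term isoxaben roots at 60 mM.

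Genes that make cellulose in the primary wall, the process isoxaben blocks, differed by small amounts. All 13 tested had a positive log2 fold change, and 4 were higher at an unadjusted p under 0.05 and none lower. Their summed level was 4150 to 4236 CPM in long-term isoxaben and 3701 to 4081 CPM in shift isoxaben, so the groups did not overlap. By edgeR 1 rose, AT1G45688, annotated as uncharacterised, with 183, 172 and 194 CPM in long-term isoxaben and 149, 154 and 156 CPM in shift isoxaben (log2 fold change 0.26, adjusted p 0.0409, edgeR), a call lost in 5 of the 6 fits that left out a library, all but the one without long-term isoxaben replicate 2 (adjusted p 0.0686 to 0.217). The list median was 0.12 against -0.003 over all genes, with CESA1 at 0.04, CEV1 (CESA3) at 0.14 and CESA6 at 0.12, none called. Of the 21 secondary wall genes none was called by edgeR or DESeq2 and 2 were lower at an unadjusted p under 0.05, with a median of -0.10. At 60 mM KNO3 19 of them, 90.5% beside 11.7% of all genes, were lower in long-term isoxaben, with a median of -0.70. At 6 mM KNO3 2.12% of all genes rose and 0.983% fell. Of 21 lignin genes, 2 rose, PRX52 and DIR5, neither of them without shift isoxaben replicate 1 or 2, and LAC11, a laccase of lignin formation, fell by 0.27 (adjusted p 0.0221, edgeR), with a median of 0.14. LAC11 was lost without long-term isoxaben replicate 2 (0.0812) or 3 (0.166) and without shift isoxaben replicate 2 (0.191), and it overlaps a gene on the other strand.

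Receptors and ligands that report on the wall moved by small amounts. Of 14 tested, 3 rose, 21.4% beside 2.12% of all genes, and the median was 0.18. The 3 were the peptide gene RALFL33 (log2 fold change 0.32), the co-receptor LLG1 (0.23) and the receptor-like kinase AT4G08850 (0.51). None of the 3 calls held in every fit that left out a library. The count was 0 without any 1 long-term isoxaben library or shift isoxaben replicate 2, and 1 without shift isoxaben replicate 1. Where their calls were lost, AT4G08850 still had a log2 fold change of 0.46 to 0.53 and LLG1 of 0.19 to 0.25. THE1 and FER, receptor kinases known for wall sensing, had log2 fold changes of 0.05 and 0.18 and were not called (adjusted p 0.811 and 0.429, edgeR).

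Touch and calcium response genes stood higher in long-term isoxaben roots. Of 10 tested, 4 rose and none fell, and the median was 0.50 on the log2 scale, beside -0.003 over all genes, of which 2.12% rose. TCH3, a calmodulin-like protein, had 52.6, 53.6 and 49.5 CPM in long-term isoxaben and 32.8, 24.9 and 34.4 CPM in shift isoxaben (log2 fold change 0.76 ± 0.12 SE; edgeR adjusted p 0.00118), and 2.81 to 6.1 CPM in the 6 mock libraries. TCH4, a xyloglucan-modifying enzyme, rose by 0.96 and the transcription factor WRKY40 by 1.25 on the log2 scale (adjusted p 0.00205 and 0.00125, edgeR), and these 3 held without any 1 of the 6 libraries. WRKY53 rose by 0.51 (adjusted p 0.0467), but of the 6 fits that left out a library its call held only in the one without shift isoxaben replicate 1, and it was also lost with only the libraries compared (0.0678) and with scaling by library size alone (0.0816). All 4 had a different effect at 60 mM KNO3 by the test of that difference, which called 8.24% of all genes. The 4 were chosen by the same 6 mM libraries, which raises such a count, so nothing is read from it. At 60 mM KNO3 TCH3 averaged 69.6 CPM in long-term isoxaben and 130 CPM in shift isoxaben. TCH3, WRKY40 and WRKY53 overlap genes on the other strand.

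Genes of low-oxygen response also leaned upward. All 11 tested had a log2 fold change above 0, with a median of 0.40, and 5 rose, 45.5% beside 2.12% of all genes. The 5 were SUS4, a sucrose synthase, ADH1, an alcohol dehydrogenase, the transcription factors ERF73 and AT3G10040, and the dioxygenase-annotated AT5G39890. SUS4 had 22.6, 21.7 and 26.9 CPM in long-term isoxaben and 14.7, 17.4 and 16.3 CPM in shift isoxaben (log2 fold change 0.56 ± 0.11 SE; edgeR adjusted p 0.00456), and it alone was called in all 6 fits that left out a library. ADH1 had 6.61, 8.24 and 9.51 CPM in long-term isoxaben and 4.07, 4.84 and 3.51 CPM in shift isoxaben (log2 fold change 0.97 ± 0.21 SE; edgeR adjusted p 0.00977), with an adjusted p of 0.0674 without long-term isoxaben replicate 3. The count of rises was 2 without long-term isoxaben replicate 2 and 3 without long-term isoxaben replicate 3 or any 1 shift isoxaben library. Under mock the same list had a median of 0.27 with 10 of 11 values above 0, and 1 member rose there. No member had a called difference between the isoxaben and the mock effect by edgeR or DESeq2, and none reached an unadjusted p under 0.05 for it.

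Jasmonate genes rose in part. Of 19 tested, 18 had a positive log2 fold change, the median was 0.32, and 4 rose, 21.1% beside 2.12% of all genes. The 4 were AOS, which makes the first committed jasmonate precursor, the repressors JAZ1 and JAZ10, and TAT3, a tyrosine aminotransferase used as a jasmonate marker. TAT3 had 2.96, 4.07 and 4.19 CPM in long-term isoxaben and 1.44, 0.997 and 0.929 CPM in shift isoxaben (log2 fold change 1.73 ± 0.31 SE; edgeR adjusted p 0.00239) and held without any 1 library. JAZ1 had 71.8, 78.1 and 89.7 CPM in long-term isoxaben and 60.2, 62.8 and 62.2 CPM in shift isoxaben (log2 fold change 0.37 ± 0.08 SE; edgeR adjusted p 0.00536), with an adjusted p of 0.0654 without long-term isoxaben replicate 3. The count of rises was 1 without long-term isoxaben replicate 3 and 2 without long-term isoxaben replicate 2 or shift isoxaben replicate 2. Under mock none of the 19 was called by edgeR or DESeq2, 1 was lower at an unadjusted p under 0.05, and the median was -0.01. JAZ1 alone had a called difference between the isoxaben and the mock effect with edgeR (0.50, adjusted p 0.0399), lost without any 1 of 10 of the 12 libraries (0.0571 to 0.156), and DESeq2 called 2 members.

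Indole and immune response genes had 4 rises among 12 tested, 33.3% beside 2.12% of all genes, and a median of 0.34. MYB51, a regulator of indole glucosinolates, had 14.7, 12.1 and 10.3 CPM in long-term isoxaben and 7.7, 6.83 and 7.53 CPM in shift isoxaben (log2 fold change 0.75 ± 0.14 SE; edgeR adjusted p 0.0026) and held without any 1 library. CYP81F2, which hydroxylates indole glucosinolates, rose by 0.75, the myrosinase PEN2 by 0.34 and the monooxygenase FMO1, at most 1.96 CPM, by 1.31 on the log2 scale. Under mock 1 of the 12 rose, 8.33% beside 0.253% of all genes, with a median of 0.10. There 5 were higher and 1 lower at an unadjusted p under 0.05, and DESeq2 called 2. The difference between the isoxaben and the mock effect was called for none by edgeR or DESeq2, and 2 reached an unadjusted p under 0.05. In isoxaben at 60 mM KNO3, 6 of the 12 fell, 50% beside 11.7% of all genes, with a median of -0.36. At 6 mM KNO3 the count of rises under isoxaben was 1 without long-term isoxaben replicate 1 or shift isoxaben replicate 1 or 2. It was 2 without long-term isoxaben replicate 2. Of 11 osmotic and abscisic acid genes, LTI78 rose by 0.40 (adjusted p 0.0486, lost without any 1 library but long-term isoxaben replicate 1) and KIN1 fell.

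The aliphatic glucosinolate pathway, which makes sulphur-rich defence compounds from methionine, was a list made after the values were seen, so its counts describe and do not test it. Of 21 members, 10 (47.6%) rose, beside 2.12% of all genes, and all 21 had a positive log2 fold change, with a median of 0.40. BCAT4, which starts the lengthening of methionine, had 256, 293 and 280 CPM in long-term isoxaben and 139, 148 and 156 CPM in shift isoxaben (log2 fold change 0.91 ± 0.15 SE; edgeR adjusted p 0.00193). CYP83A1, which oxidises the aldoxime intermediates, had 237, 253 and 251 CPM in long-term isoxaben and 137, 148 and 152 CPM in shift isoxaben (log2 fold change 0.76 ± 0.09 SE; edgeR adjusted p 3.83e-05). The long-term isoxaben libraries stood above all 9 other libraries at 6 mM KNO3 for both genes: CYP83A1 had 155, 143 and 123 CPM in long-term mock and 135, 141 and 130 CPM in shift mock.

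BCAT4, IMD1, CYP79F2, CYP83A1, GSTF11 and SOT18 were called in all 6 fits that left out a library, and MAM1, SUR1 and SOT17 in none of them. The summed level of the list was 2917 to 3079 CPM in long-term isoxaben and 2097 to 2196 CPM in shift isoxaben, and 1964 to 2372 CPM in long-term mock and 1994 to 2240 CPM in shift mock. The count of rises was 6 without any 1 of long-term isoxaben replicates 1 and 3 and shift isoxaben replicates 1 and 2. Under mock no member was called by edgeR or DESeq2 and none reached an unadjusted p under 0.05, with a median of 0.05. The difference between the isoxaben and the mock effect was called for CYP83A1 (0.71 on the log2 scale, adjusted p 0.0152, edgeR), but not without long-term mock replicate 3 (0.0546). DESeq2 called 2 members, and 10 reached an unadjusted p under 0.05, all with the higher effect under isoxaben. BCAT4, IMD1 and GSTF11 overlap genes on the other strand.

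Flavonoid synthesis, another list made after the values were seen, had members that fell in long-term roots with isoxaben and with mock. Of 11 members, 7 (63.6%) fell in long-term isoxaben with a median of -0.42, beside 0.983% of all genes. In long-term mock 6 (54.5%) fell with a median of -0.44, beside 0.389% of all genes. TT7, which adds a hydroxyl group to the flavonoid B ring, had 12.2, 16.6 and 16.2 CPM in long-term isoxaben and 27.1, 32.3 and 35.9 CPM in shift isoxaben (log2 fold change -1.08 ± 0.18 SE; edgeR adjusted p 0.00193), and 16.8, 20.9 and 18.5 CPM in long-term mock and 32.9, 31.8 and 34.3 CPM in shift mock. TT5, the chalcone isomerase, had 61.8, 74.6 and 71.8 CPM in long-term isoxaben and 101, 109 and 118 CPM in shift isoxaben, and 59.9, 63.9 and 58.1 CPM in long-term mock and 109, 92.9 and 103 CPM in shift mock. Under mock TT7 was lost without any 1 of the 6 libraries (adjusted p 0.0626 to 0.171) and TT5 without long-term mock replicate 1 or 3 or shift mock replicate 1 (0.0663 to 0.076). FLS1, the flavonol synthase, was lost under mock without any 1 of the 6 libraries (0.103 to 0.198) and with no low-count filter (0.0653). UGT78D2, a flavonoid glycosyltransferase, was lost there in all such fits but the one without shift mock replicate 3 (0.0632 to 0.252). No member had a called difference between the isoxaben and the mock effect by edgeR or DESeq2, and none reached an unadjusted p under 0.05 for it. The 7 falls under isoxaben dropped to TT7 alone (count 1) without long-term isoxaben replicate 1, to 4 when its replicate 2 was left out, and to 3 without shift isoxaben replicate 2 or 3.

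**Figure D5:**
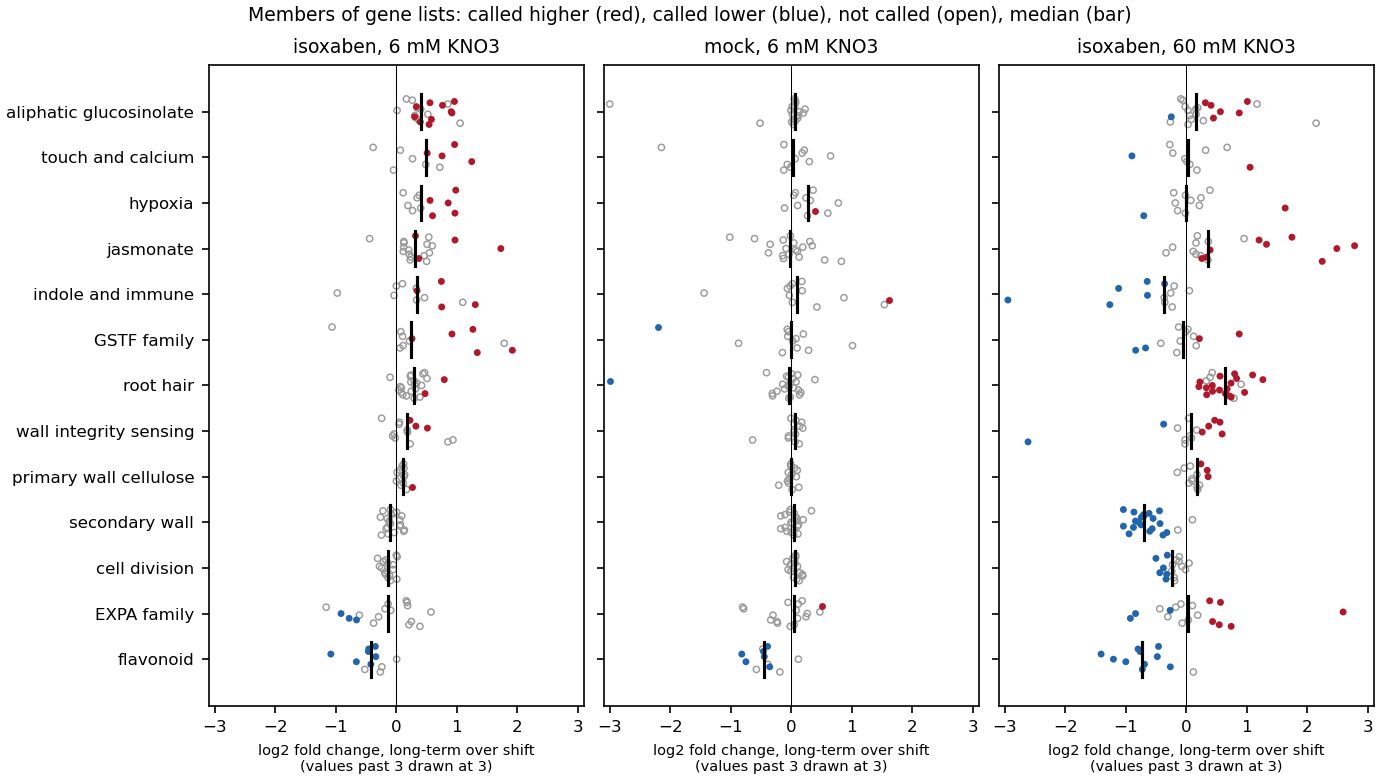
Log2 fold change of long-term over shift for each member of 13 gene lists, in isoxaben at 6 mM KNO3 (left), mock at 6 mM (middle) and isoxaben at 60 mM (right); red and blue points were called higher and lower, open points were not called, and bars are list medians. Of the 11 flavonoid genes 10 lie left of 0 in each panel, and the 21 aliphatic glucosinolate genes lie right of 0 in the left panel.

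Expansins, which loosen cell walls and were grouped as a family after the values were seen, fell in part. Of 17 alpha-expansins, EXPA1, EXPA4 and EXPA15 fell, each in every fit that left out a library, and the family median was -0.14. Of all genes tested 0.983% fell, but the family was grouped by its values, so its count is a description. The family went both ways: 7 of the 17 had a positive log2 fold change, and 4 were higher and 5 lower at an unadjusted p under 0.05. No member was called higher by edgeR as reported. DESeq2, a replicate block and a fit on only the libraries compared each called 1 higher and 3 lower, as did the fit without shift isoxaben replicate 3. EXPA4 had 82.8, 118 and 97.8 CPM in long-term isoxaben and 165, 188 and 209 CPM in shift isoxaben, a clear gap (log2 fold change -0.91 ± 0.17 SE; edgeR adjusted p 0.00489). In mock roots EXPA4 had 147, 182 and 146 CPM in long-term plants, against 115, 164 and 117 CPM in shift plants. The difference between the isoxaben and the mock effect was -1.18 (adjusted p 0.0399, edgeR). Among fits that left out a library, that call held only without long-term isoxaben replicate 2, shift isoxaben replicate 1 or shift mock replicate 2. Its adjusted p was 0.0623 to 0.123 without any 1 of the 9 others. It was also lost with only the libraries compared (edgeR adjusted p 0.116) and with no low-count filter (0.06). EXPA15 fell by 0.78 and EXPA1 by 0.66 on the log2 scale (adjusted p 0.00344 and 0.00341, edgeR).

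Root hair genes mostly fell short of the threshold at 6 mM KNO3. Of 23 tested, 22 had a positive log2 fold change, with a median of 0.29. The 2 that rose, 8.7% beside 2.12% of all genes, were the transcription factors RSL2 and RSL4 that promote hair growth. RSL2 had 14.8, 14.5 and 16 CPM in long-term isoxaben and 9.54, 7.33 and 9.23 CPM in shift isoxaben (log2 fold change 0.79 ± 0.16 SE; edgeR adjusted p 0.00566), with an adjusted p of 0.0586 without shift isoxaben replicate 2. RSL4 rose by 0.48 (adjusted p 0.0358), a call lost without any 1 of the 6 libraries. The count was 0 without shift isoxaben replicate 2, 3 without shift isoxaben replicate 3 and 1 without any 1 of the others. At 60 mM KNO3 18 of the 23 rose, 78.3% beside 13.2% of all genes.

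Other processes gave no call between long-term and shift isoxaben at 6 mM KNO3, or a single one, in the fit as reported. None of 17 cell division genes was called by edgeR or DESeq2, with a median of -0.14 and 6 lower at an unadjusted p under 0.05, and the summed level was 434 to 444 CPM in long-term isoxaben and 470 to 497 CPM in shift isoxaben. None of 20 nitrate response genes was called by edgeR (1 by DESeq2, 4 at an unadjusted p under 0.05), with a median of 0.03. The Casparian strip list of 10, the suberin list of 13 and the heat shock list of 6 had medians of 0.22, 0.02 and -0.13. None was called by edgeR or DESeq2, and 1, 0 and 2 members reached an unadjusted p under 0.05. The Casparian strip list summed to 798 to 896 CPM in long-term isoxaben and 658 to 776 CPM in shift isoxaben. Fitted on the 6 libraries alone, where 1368 genes were called, 3 Casparian strip and 2 nitrate response genes rose. In that fit 1 gene each of the heat shock, cell division and nitrate response lists fell. Of 16 iron deficiency genes CYP82C4 alone fell, with a median of -0.09, while 5 were lower and 1 higher at an unadjusted p under 0.05. Between long-term and shift mock 2 of the 16 fell, 12.5% beside 0.389% of all genes, with a median of -0.86. In isoxaben at 60 mM KNO3, 8 rose and 1 fell, 56.2% beside 24.9% of all genes, with a median of 0.95. Markers of other tissues gave no call between long-term and shift isoxaben at 6 mM KNO3. The 18 shoot photosynthesis genes summed to 332 to 434 CPM in long-term isoxaben and 399 to 406 CPM in shift isoxaben. None of them, of 10 root meristem, 4 root cap or 7 phloem markers was called by edgeR or DESeq2, and 1, a meristem marker, reached an unadjusted p under 0.05. Only 1 of the 10 meristem markers had a positive log2 fold change, and their median was -0.175. With scaling by library size alone, and with only the libraries compared, edgeR called 1 meristem marker lower. The part of shoot or meristem tissue in the results above was not tested.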

How the data were processed

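RNA-seq counts per gene were taken as the authors deposited them, whole numbers for 32833 genes in 24 libraries of whole roots. Per the submitters' processing notes the tools were STAR 2.7.9a and DESeq2 1.32.0 and the build was TAIR10; the strand setting and gene annotation of the counting are not given in the sources used here. A table of normalised counts by the authors was not used here.

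Genes passing edgeR's low-count filter over 8 groups (20546 genes, 99.96% of counts) were fitted with edgeR 4.0.16 in R 4.3.3: TMM scaling, robust quasi-likelihood dispersion, a mean for each of 8 groups and 16 residual degrees of freedom. Log2 fold changes are long-term over shift with a prior count of 0.125; SE is the fold change over the root of F. Calls have an adjusted p under 0.05 (Benjamini-Hochberg over all genes). The differences of effects, isoxaben minus mock and 6 mM minus 60 mM KNO3, are contrasts of the same fit and share the 6 libraries with the main comparison. The fit was tested on simulated counts. Between 18902538 and 20519913 counts per library set the precision; CPM floors of 3 counts cover counting error only.

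Genes were named by rule. Among calls with separate CPM ranges and a mean of 5 CPM or more in 1 of the groups, these were the 12 largest rises and 12 largest falls, then the 4 smallest adjusted p for each difference of effects, then members of the gene lists. The comparison and the gene lists were chosen with earlier results of these data known, and the glucosinolate and flavonoid lists and the EXPA, EXPB, GSTF, GSTU and XTH families after values were seen. Symbols, overlaps, exon windows of 50 bases and sequences came from RefSeq TAIR10.1, which matched 32548 table genes by locus tag. Alternatives were DESeq2 1.42.0, other scaling, no filter, a replicate block, only the libraries compared, and leaving out each library.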

Additional observations from a re-analysis of the deposited data

Results flagged for a closer look

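Results stood out here because the effect of exposure differed between treatments or KNO3 levels by the test of that difference (edgeR quasi-likelihood test, adjusted p under 0.05). Between isoxaben and mock at 6 mM KNO3 this held for 54 genes. Among the genes named, the isoxaben effect was the higher for XTH26 (3.96 on the log2 scale), TI1 (2.68), ROPGEF12 (1.17), XTH12 (1.09), CYP83A1 (0.71) and JAZ1 (0.5). It was the lower for AT5G14650 (-2.96), GASA5 (-2.41), AT2G37870 (-1.55), KIN1 (-1.19), EXPA4 (-1.18), AT2G33620 (-1.06) and SP1L5 (-0.89). XTH12, a xyloglucan-modifying enzyme, had 65.8, 62.7 and 63.7 CPM in long-term isoxaben and 52.6, 42.5 and 62.9 CPM in shift isoxaben, and 14.9, 19.4 and 12.6 CPM in long-term mock and 32, 23.8 and 26 CPM in shift mock. Its call was lost without any 1 of 9 of the 12 libraries and with a replicate block (adjusted p 0.0745).

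Between 6 mM and 60 mM KNO3 under isoxaben the effect of exposure differed for 1694 genes. Among the genes named, it was the higher at 6 mM for SP1L5 (3.38), PRX52 (2.99), GSTF6 (2.75), DIR5 (2.59), CYP706A2 (2.33), scpl31 (1.92), CYP706A1 (1.8), AT2G47200 (1.78), AT2G43620 (1.7), KIN1 (1.5), GSTF7 (1.49), GLIP3 (1.31), PHO1;H1 (1.3), GSTF2 (1.24) and AT5G64120 (1.05). It was the lower at 6 mM for TI1 (-2.14), AT4G35720 (-1.75) and PDF2.1 (-1.39). AT2G47200 overlaps a gene on the other strand. All of these comparisons have the 6 libraries of long-term and shift isoxaben at 6 mM KNO3 in common, so the 2 sets of differences are not independent.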

How the results depend on the processing

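Across alternatives no named gene reversed its sign where it was called. The 637 genes called between long-term and shift isoxaben at 6 mM KNO3 became 81 where the log2 fold change had to reach 1 in size (the fold limit) and 1368 with only the 6 libraries compared, and ran from 191 to 485 when 1 library was left out. For mock at 6 mM, 132 became 42 with the fold limit and 40 to 105 without 1 library. For isoxaben at 60 mM, 5107 became 838 with the fold limit and 3219 with only the libraries compared, and ran from 3792 to 4766 without 1 library. For isoxaben minus mock, 54 became 25 with the fold limit, 113 with DESeq2, 119 with only the libraries compared and 18 to 66 without 1 library. For 6 mM minus 60 mM KNO3, 1694 became 478 with the fold limit and ran from 1258 to 1862 without 1 library; scaled by library size alone, 1800 were called, 66.1% of them higher against 54.5%. Same-numbered replicates did not deviate together in the main comparison (correlations of 0.0996, -0.0213 and -0.0798, beside -0.138 to 0.152 for unlike numbers). Pairing by number between isoxaben and mock, or between KNO3 levels, was not tested. A replicate block gave 669, 111, 5097, 57 and 1727 calls in the order above, and under it the calls of WRKY53 (isoxaben, 0.0558) and of FLS1 and UGT78D2 (mock, 0.0726 and 0.0509) were lost, and for isoxaben minus mock XTH12 was lost (0.0744) and PDF2.1 gained (0.0318; edgeR adjusted p). Low genes, such as GolS4 and DIR5, rest on few counts.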

Other observations

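Some families outside the lists above were grouped after their values were seen, and their counts are descriptions. Over all genes tested 2.12% rose and 0.983% fell in long-term isoxaben at 6 mM KNO3. Of 28 tau-class glutathione S-transferases, 6 rose and 1 fell in long-term isoxaben, with a median log2 fold change of 0.10. GSTU12 had 4.92, 4.7 and 3.23 CPM in long-term isoxaben and 1.24, 1.45 and 1.44 CPM in shift isoxaben (log2 fold change 1.63; edgeR adjusted p 0.00039), and at most 0.314 CPM in each mock library at 6 mM KNO3. ERD9 had 8.94, 12.1 and 11.9 CPM in long-term isoxaben and 19.9, 22.1 and 24 CPM in shift isoxaben (log2 fold change -1.001; edgeR adjusted p 3.44e-05), and it was lower in long-term mock too (-0.65, adjusted p 0.00827), a call lost without long-term mock replicate 1 or 3 or shift mock replicate 1 (0.0546 to 0.1). The 6 rises were 2 without long-term isoxaben replicate 1 or shift isoxaben replicate 2 and 3 without shift isoxaben replicate 3, while GSTU12, GSTU25 and ERD9 were called in all 6 fits that left out a library. Of 12 phi-class members 5 rose, with a median of 0.24, and 2 of them, GSTF6 and GSTF11, were called in all 6 fits; the count was 2 without shift isoxaben replicate 2 and 3 without replicate 1 of either group.

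Of 27 xyloglucan-modifying XTH genes, 3 rose and 1 fell, with a median of 0.16. XTR6 had 25.4, 22.9 and 25.6 CPM in long-term isoxaben and 14, 13.2 and 17.1 CPM in shift isoxaben (log2 fold change 0.74; edgeR adjusted p 0.00632), lost without shift isoxaben replicate 2 (0.057). TCH4 and XTH24 were the other rises and XTH32 the fall (-0.74), and TCH4 alone was called in all 6 fits. Of 3 beta-expansins 2 fell. EXPB3 had 85, 132 and 118 CPM in long-term isoxaben and 204, 222 and 240 CPM in shift isoxaben (log2 fold change -0.99; edgeR adjusted p 0.0028), against 174, 185 and 149 CPM in long-term mock and 140, 188 and 157 CPM in shift mock. EXPB2, the other, was at most 0.158 CPM in long-term isoxaben, and its call was lost without long-term isoxaben replicate 1 or 3 or shift isoxaben replicate 3 (adjusted p 0.0782 to 0.0874). Of 10 indole glucosinolate genes, IGMT1, IGMT2 and GSTF10 rose, with a median of 0.24; IGMT2 alone was called in all 6 fits, and 36.7% of its exon windows recur elsewhere. SCPL45 (AT1G28110), a serine carboxypeptidase-like gene, had the smallest adjusted p of all genes between long-term and shift isoxaben at 6 mM KNO3 (8.34e-07, edgeR), with log2 fold changes of -0.73 under isoxaben and -0.30 under mock at 6 mM and -0.84 under isoxaben at 60 mM KNO3.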
